A study of Homo sapiens with 24 samples.

Results

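HCT116 is an established human colorectal carcinoma cell line in which 1 component of the WNT pathway, *CTNNB1*, was inactivated in some clones and left intact in others. The libraries described here were chosen by the cell line and genotype given for each sample and number 8 of the 24 in the series. They comprise 4 libraries of *CTNNB1* knock-out cells (KO, clones 44 and 47) and 4 libraries of wild-type cells (WT, clones 4 and 6), with each clone sequenced in rounds A and B. The study made the same comparison in the colorectal cancer lines HT29 and SW480, with 8 libraries each. The design asks which genes differed between KO and WT cells, and here the changes that held in both KO clones are followed in particular.

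KO denotes biallelic removal of exon 7 of *CTNNB1* with CRISPR/Cas9, and WT denotes cells with the gene intact. All HCT116 clones share the mutations of the parental line, including an activating mutation in *CTNNB1* itself, so that WT refers to the absence of the deletion. According to the paper, the WT clones had also been exposed to CRISPR/Cas9 and cloned in the same way, but carried no deletion. Clones were grown from single sorted cells, and each genotype was represented by 2 clones. Differences that arose in 1 clone for other reasons therefore cannot be told apart from effects of the genotype unless the clones are compared. Libraries are referred to by genotype, clone number and round (KO 44A). Values are read counts per gene that the authors divided by 1 size factor per library, and 1 read corresponded to between 0.917 and 1.07 of these normalised reads.

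Depth was similar, with 25012505 to 29068378 reads on genes per library. KO 47A stood apart from the other libraries in the number of genes with traces of reads. It held 19267 genes with 1 to 9 reads, compared with 5707 to 8561 in the other 23 libraries of the series, although these reads were 0.216% of its total. The count of held genes is therefore also given without it, as are named genes whose call as held was lost. The epithelial keratins *KRT8* and *KRT18* and *EPCAM* were abundant in each of the 8 libraries, and *CDX2* was at 421 to 697 normalised reads. *CDX1* was at 0 throughout, and *VIL1* and *CDH17* did not exceed 9.52, so that not all defining markers of gut epithelium were present. The summed level of the 10 gut epithelium markers was 132010.0 to 161884 in WT and 138962 to 197835 in KO libraries. Markers of endothelium, leukocytes and erythroid cells summed to at most 67.4 in any library, and those of fibroblasts to at most 444, most of which was *COL1A1*.

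β-Catenin, the product of *CTNNB1*, links cadherins to the cytoskeleton at cell junctions and acts in the nucleus as a coactivator of TCF/LEF transcription factors. In the absence of WNT ligands a complex of AXIN, APC and kinases marks it for degradation, and mutations that block this step are frequent in colorectal cancer. Targets of β-catenin include genes such as *AXIN2* and *RNF43*, whose products limit the pathway in a negative feedback loop. In the intestine the pathway maintains stem cells and progenitors of the crypt.

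The deleted exon is shown because its removal defines the KO. In the reference annotation (GRCh37, transcript with 15 exons) exon 7 spans 145 bases, which leaves a remainder of 1 after division into codons. The exons before it hold the first 312 complete codons of 781. The sequence is that of the reference genome on the plus strand, chr3:41268699-41268843.
CTNNB1 exon 7: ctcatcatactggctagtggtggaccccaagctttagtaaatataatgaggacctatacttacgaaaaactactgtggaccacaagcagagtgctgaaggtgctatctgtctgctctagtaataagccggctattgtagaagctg

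RNA of the targeted gene matched the labels in all 8 libraries. *CTNNB1* (ENSG00000168036, chromosome 3, 41236232 to 41301587) was at 187 and 222 in KO 44 and 207 and 255 in KO 47. The WT values were 12410.2 and 12800.1 in WT 4 and 10512 and 11952 in WT 6. KO libraries thus lay far below every WT library. The mean was 218 ± 28.9 in KO and 11918 ± 999.9 in WT (SD, n = 4), which is 1.83% of the WT level, and the log2 fold change was −5.77 with an SE of 0.12 (adjusted p = 2.19e-10, limma). No difference between the KO clones was detected (log2 difference −0.17, adjusted p = 0.617). These reads are counts over the whole gene, whose span overlaps *ULK4* on the other strand, and do not show which exons they came from.

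Of 15404 genes tested, 779 were differentially expressed genes (DEGs) between KO and WT, or 5.06%. A DEG had an adjusted p under 0.05 in limma after Benjamini-Hochberg correction and an absolute log2 fold change over 1. Higher in KO were 488 (3.17%) and lower 291 (1.89%). A change was taken as held when the gene was a DEG and each KO clone on its own passed both thresholds in the same direction against the 4 WT libraries. This was the case for 473 genes, 3.07% of those tested, of which 303 rose and 170 fell. They made up 62.1% of the DEGs that were higher and 58.4% of those that were lower in KO. KO 44 alone gave 1186 calls (7.70%) and KO 47 alone 767 (4.98%), and both comparisons share the same WT libraries. The median log2 fold change was 1.72 among held rises and −2.04 among held falls, whereas it was −0.01 over all tested genes.

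Each of the 473 held genes had KO libraries that did not overlap with WT libraries, which was also true of 20.5% of all tested genes. Most held changes were differences of degree. Only 6 genes fell from at least 100 normalised reads in every WT library to under 10 in every KO library, and 1 gene rose in the reverse manner. Protein-coding genes made up 88.6% of held genes and 81.0% of tested genes, and 32 held genes were long noncoding RNAs. In 9 held genes every KO library, and in 1 every WT library, had at most 3 reads, so that their fitted fold change depends on the value of 1 added before taking logarithms. Without KO 47A, which leaves KO 47 with 1 library that is assumed to vary like the rest, 773 genes were DEGs and 323 were held (198 rises and 125 falls), and 307 of these were among the 473. Of the 74 held genes named by rule, 15 were not held without KO 47A. With any other single library left out, held genes numbered between 346 and 485. p-values of KO against WT measure the spread between libraries of 2 clones per genotype. They count the rounds of a clone as separate libraries. With the rounds of each clone averaged, 30 of the 74 named held genes were not called. In comparisons of 1 KO clone with WT or with the other KO clone, each KO clone was its own group. The spread within a KO clone then came only from its libraries of rounds A and B. The p-values of these comparisons therefore do not measure the spread between KO clones.

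**Figure D1:**
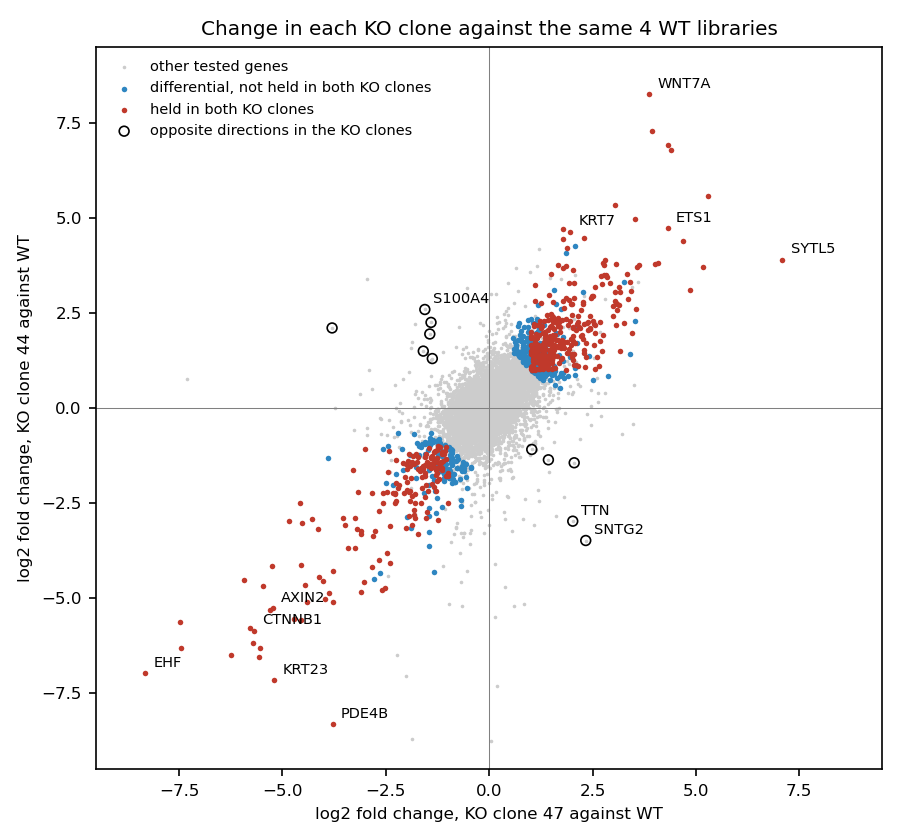
Each point is a tested gene, with its log2 fold change in KO clone 47 against WT on the x axis and in KO clone 44 against WT on the y axis. Both axes use the same 4 WT libraries. The 473 held genes (red) lie in the lower left and upper right, the other 306 DEGs are blue, and 11 circled genes passed the thresholds in opposite directions.

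The largest falls among held genes with at least 100 normalised reads in the higher genotype affected a transcription factor of epithelia, enzymes and secreted or surface proteins. *EHF* (ENSG00000135373, chromosome 11, 34642640 to 34684835), an ETS family transcription factor of epithelial cells, was at 7.86 and 5.65 in KO 44 and 2.14 and 1.90 in KO 47. Its WT values were 1257 and 1366 in WT 4 and 834 and 604 in WT 6. The gene was thus near the detection limit in all KO libraries and well expressed in all WT libraries, with a log2 fold change of −7.65 (SE 0.39, adjusted p = 5.77e-07, limma). *ZBED2*, which encodes a zinc-finger transcription factor, was at 6.88 and 2.83 in KO 44 and 2.14 and 0.952 in KO 47. Its levels in WT were 302 and 299 in clone 4 and 562 and 691 in clone 6, so that WT clones also differed, yet all were above KO (log2 fold change −6.88, adjusted p = 2.02e-06, limma).

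*CYP24A1*, the hydroxylase that inactivates vitamin D, was at 29.5 and 19.8 in KO 44 and 7.49 and 4.76 in KO 47. The WT libraries ranged from 864 to 2024. The fall was −6.55 on the log2 scale (adjusted p = 2.97e-05, limma) and measured −7.47 in KO 47 and −5.63 in KO 44 (adjusted p of the difference 0.0256). *PDE4B*, a phosphodiesterase that degrades cyclic AMP, was at 9.83 and 8.48 in KO 44 and 204 and 265 in KO 47, below all WT values of 2741 to 4136. Both clones were low but to different extents, since the log2 fold change was −8.31 in KO 44 and −3.78 in KO 47 (adjusted p of the difference 4.94e-06, limma). The pooled change of −6.05 had an adjusted p of 0.0217, which rose above 0.05 when KO 44A, WT 4A or WT 6B was left out.

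*KITLG*, which encodes the ligand of the receptor tyrosine kinase KIT, stood out by its level. It was at 27968 and 34083 in WT 4 and 40055 and 39128 in WT 6. KO 44 retained 1297 and 1748 and KO 47 retained 430.3 and 768. This was a log2 fold change of −5.23 (SE 0.39, adjusted p = 9.54e-05, limma), and the test of the difference between KO clones gave an adjusted p of 0.0187. *KRT23*, a type I keratin, was listed at 0 in both KO 44 libraries and at 2.14 and 3.81 in KO 47, compared with 120.1 to 163 in WT (log2 fold change −6.17, adjusted p = 1.60e-05, limma). With so few KO reads the size of this fall is uncertain, and it ran from −8.02 to −4.54 under the alternatives.

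Further large falls concerned genes better known from other cell types. *PRF1*, the pore-forming protein of cytotoxic lymphocytes, was at 117 to 190.3 in WT and at 0 to 1.88 in KO libraries, all of which had at most 3 reads, so that no fold is given (adjusted p = 1.11e-06, limma). *CD33*, a sialic acid receptor of myeloid cells, was at 357 to 474 in WT and 1.97 to 8.56 in KO (log2 fold change −5.93, adjusted p = 1.17e-06). The leukocyte marker *PTPRC* was at 0 in all WT libraries, and the 10 leukocyte markers summed to 32.1 to 45.5 in WT and 21.7 to 67.4 in KO. *IRAG1*, a substrate of cGMP-dependent protein kinase, fell from a range of 178 to 309 in WT to one of 1.90 to 6.42 in KO (log2 fold change −5.94, adjusted p = 1.11e-06), and *SUSD2*, a membrane protein with a sushi domain, from a range of 127 to 299 in WT to one of 2.85 to 10.4 in KO (log2 fold change −4.71, adjusted p = 2.43e-05).

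Among the largest rises, the level reached often depended on the KO clone. *WNT7A* (ENSG00000154764, chromosome 3, 13857755 to 13921568), a WNT ligand, was at 1.83 and 0 in WT 4 and 3.70 and 6.66 in WT 6. In KO 44 it reached 995 and 959 and in KO 47 62.1 and 33.3. Both clones were above all WT libraries, but KO 44 exceeded KO 47 (log2 difference 4.39, adjusted p = 0.0131, limma). The pooled log2 fold change was 6.07 (adjusted p = 0.0149), which was not called without WT 4A (adjusted p = 0.0525), and without KO 47A the change was not held. *C11orf86*, an uncharacterised gene, showed the same order, with 308 and 294 in KO 44 and 22.5 and 37.1 in KO 47 and at most 3 reads in each WT library (adjusted p of the difference between KO clones 0.0146). *CALB2*, the calcium-binding protein calretinin, was at 2604 and 1549 in KO 44 and 666 and 224 in KO 47, compared with 8.35 to 31.4 in WT (log2 fold change 5.59, SE 0.75, adjusted p = 0.00216). Its difference between KO clones was 2.38 on the log2 scale (adjusted p = 0.0723, or 9.60e-04 with the round as a block).

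*SYTL5*, a synaptotagmin-like protein of vesicle transport, had the reverse order. It was at 55.0 and 65.0 in KO 44 and 439.9 and 694 in KO 47, above 0.928 to 6.42 in WT (log2 fold change 5.50, adjusted p = 0.00326; difference between KO clones −3.19, adjusted p = 0.0205, limma). *SNAI2*, the transcriptional repressor Slug of epithelial-mesenchymal transition, was at 137 and 81.0 and 389 and 327 in the same order of clones, above 5.71 to 22.02 in WT (log2 fold change 3.97, adjusted p = 6.84e-04). *EFNA5*, an ephrin ligand, was at 61.9 and 79.1 in KO 44 and 159 and 236 in KO 47 and at 1.86 to 11.1 in WT (log2 fold change 4.45, adjusted p = 4.69e-04). For neither *SNAI2* nor *EFNA5* did the difference between KO clones pass the threshold (adjusted p = 0.101 and 0.283).

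*ETS1* (ENSG00000134954, chromosome 11, 128328656 to 128457453), an ETS transcription factor, was at 1656 and 1498 in KO 44 and 1232 and 1127 in KO 47. It was at 67.0 and 39.9 in WT 4 and 82.2 and 52.4 in WT 6. The lowest KO library was at 1127 and the highest WT library at 82.2, and the log2 fold change was 4.52 (SE 0.22, adjusted p = 3.17e-07, limma). *TRHDE*, the ectoenzyme that degrades thyrotropin-releasing hormone, rose from a range of 7.42 to 37.9 in WT to one of 346 to 447 in KO (log2 fold change 4.53, adjusted p = 6.01e-05). Its antisense RNA *TRHDE-AS1* went from a range of 1.86 to 17.6 in WT to one of 89.4 to 128 in KO (adjusted p = 5.76e-04), but the library kit does not mark strand, so that reads of both genes cannot be told apart where they overlap. *SEMA3D*, a secreted semaphorin, was at 489 and 638 in KO 44 and 169 and 243 in KO 47, compared with 7.62 to 31.6 in WT (log2 fold change 4.25, adjusted p = 3.42e-04). The noncoding RNA *LINC00707* was at 115 to 187 in KO and at most 4.76 in WT (log2 fold change 5.43, adjusted p = 4.77e-05). The gene with the identifier ENSG00000230439, which has no entry in the annotation used, was at 698 and 485 in KO 44, 126 and 71.4 in KO 47 and 0.928 to 6.66 in WT (log2 fold change 5.62, adjusted p = 0.001001), and here too the KO clones differed (adjusted p = 0.0437).

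**Figure D2:**
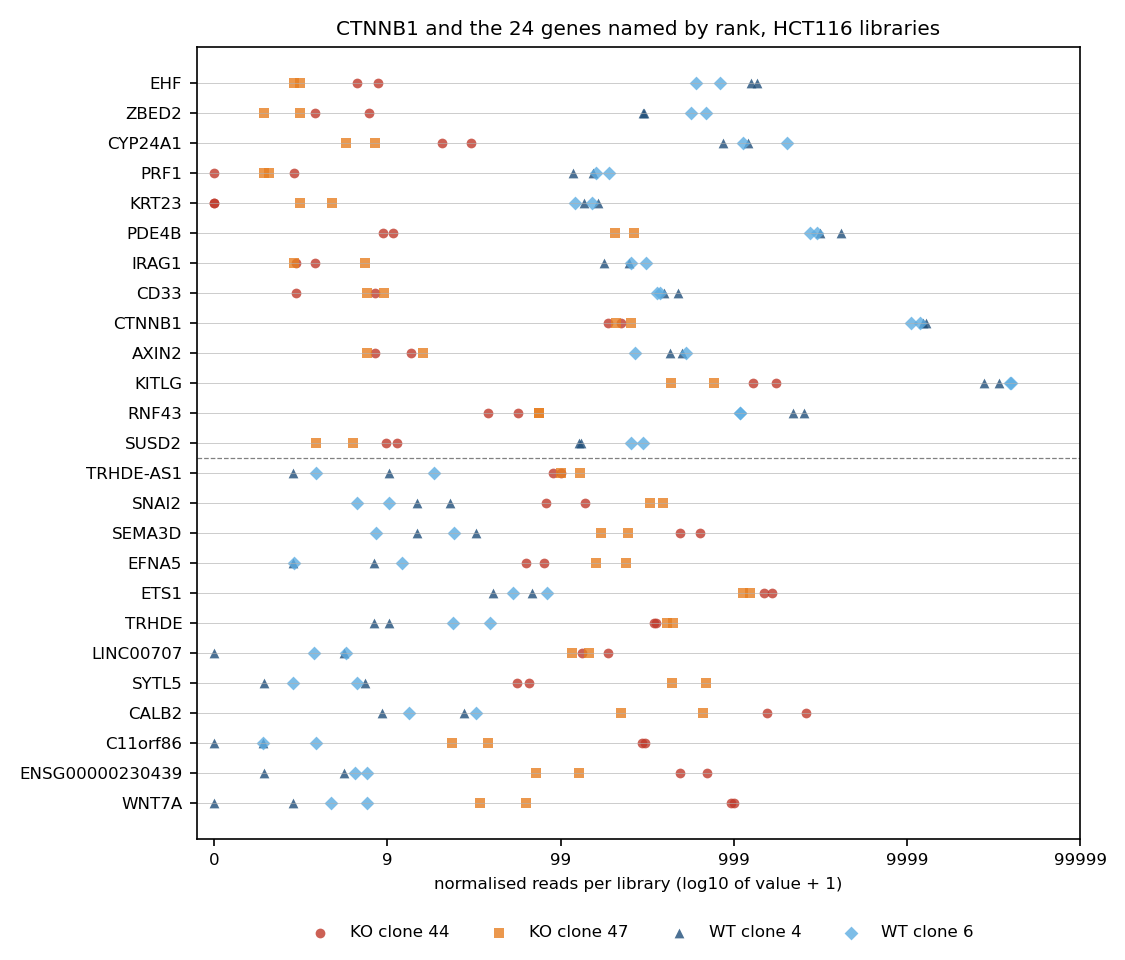
Normalised reads in each HCT116 library on a log10 axis (value plus 1) for *CTNNB1* and the 12 held genes with the largest falls (above the dashed line) and the 12 with the largest rises (below it), chosen by fold change, a mean of at least 100 and no overlap of KO and WT libraries. Symbols give the clone. The lack of overlap between KO and WT symbols follows from this choice for all genes but *CTNNB1*, which shows none either. For *WNT7A*, *C11orf86*, *SYTL5* and *PDE4B* the KO clones are far apart.

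Among known negative feedback genes of the pathway, 10 of the 12 that could be tested had a negative sign. Of 22 genes on the list 2 were DEGs, both lower and both held, and 6 had an adjusted p under 0.05 with a negative sign. The median log2 fold change was −0.59. *AXIN2* (ENSG00000168646, chromosome 17, 63524681 to 63557766), a scaffold of the destruction complex, was at 12.8 and 7.54 in KO 44 and 14.99 and 6.66 in KO 47 and at 427 and 500.2 in WT 4 and 266 and 531 in WT 6. The highest KO library was at 14.99 and the lowest WT library at 266, which gave a log2 fold change of −5.25 (SE 0.31, adjusted p = 1.17e-06, limma) with −5.27 in KO 44 and −5.24 in KO 47. *RNF43*, a ubiquitin ligase that removes Frizzled receptors, was at 37.3 and 55.6 in KO 44 and 73.9 and 74.2 in KO 47. In WT its level was 2195 and 2537 in clone 4 and 1082 and 1089 in clone 6, and the log2 fold change was −4.76 (adjusted p = 5.64e-06). *NKD1*, an antagonist of Dishevelled, was at 125 to 182 in KO and 251 to 317 in WT, a log2 fold change of −0.89 (adjusted p = 0.00503) that was under the threshold for size.

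Counts on this and the following lists are to be read against all tested genes, of which 3.17% were higher and 1.89% lower. A share given for a list counts calls in either direction, against 5.06% of all genes. Counts by p alone, also on the feedback list, are to be read against 2154 of all 15404 genes (13.98%) for an adjusted p under 0.05. For an unadjusted p under 0.05 the number over all tested genes was 4553 (limma). The list of other WNT target genes contained 6 DEGs lower and 3 higher in KO among 34 tested, of which 5 and 3 were held, with a median log2 fold change of −0.26. The held members with the largest changes were *BMP4*, *BAMBI*, *ID2* and *SOX4*. *SOX4*, a transcription factor of progenitor cells, was at 533 and 690.5 in KO 44 and 633 and 739 in KO 47 and at 3962 and 4615 in WT 4 and 1768 and 2032 in WT 6 (log2 fold change −2.14, adjusted p = 0.00119, limma), and was not held without KO 47A. The levels in WT 4 were above those in WT 6, and all exceeded KO. *MYC*, a proto-oncogene with a well-studied TCF enhancer, was at 7436 and 7943 in KO 44 and 9927 and 9825 in KO 47 and at 10208 and 10627 in WT 4 and 14782 and 13919 in WT 6. Its log2 fold change of −0.49 had an adjusted p of 0.0449 (0.0515 with the round as a block), was −0.67 in KO 44 and −0.31 in KO 47 (adjusted p = 0.0135 and 0.247), and was too small for a DEG. *TERT*, the catalytic subunit of telomerase, was at 43.8 to 90.4 in KO and 56.6 to 188 in WT without a detectable change (log2 fold change −0.76, adjusted p = 0.234). *ASCL2* and *LGR5*, markers of intestinal stem cells, were not tested because no library exceeded 5.35 normalised reads.

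*ADAM19*, a membrane-bound metalloprotease, and *NR2F1*, a nuclear receptor, are among the genes the study names. *ADAM19* was at 249 and 138 in KO 44 and 96.3 and 52.3 in KO 47 and at 3381 and 2680.3 in WT 4 and 857 and 511 in WT 6. The WT clones differed from each other, but the lowest WT library was above the highest KO library (log2 fold change −3.61, SE 0.71, adjusted p = 0.0156, limma). *NR2F1* was at 462 and 359 in KO 44 and 472 and 669.9 in KO 47 and at 2625 and 2850.1 in WT 4 and 1481 and 1295 in WT 6 (log2 fold change −2.02, adjusted p = 0.00103). Without KO 47A neither was held, and with the round as a block *ADAM19* was not held.

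TCF/LEF factors bind a short motif, and its letters were counted in the promoters of held falls, held rises and all tested genes. RefSeq promoters (GRCh38.p14, 250 bases before to 50 after the start) matched 10706 of the 15404 tested genes, 118 of the held falls and 214 of the held rises. The letters CTTTGA on either strand (TCAAAG on the other) were found in 8.43% of all matched promoters, in 11.9% of held falls (14 genes) and in 10.7% of held rises (23 genes). CTTTGAT, which contains the shorter motif, was found in 1.37% of all matched promoters, 2.54% of held falls (3 genes) and 1.87% of held rises (4 genes). The held rises with it are not shown. Neither motif was found in the promoters of the falls *EHF*, *ZBED2*, *KITLG*, *RNF43*, *BMP4*, *SOX4* and *TCF7L2*, while those of *PRF1* and *LAMA2* had the shorter one. Differences between these shares were not tested, and a part of the motif in the falls was not tested either. The 3 held falls with the longer motif were *NR2F1*, *FGF18* and *KSR2*, the last 2 of which were chosen after their values had been seen. Their promoters are shown with the matches in capitals, with *NR2F1* at chr5:93582972-93583271 (plus strand), *FGF18* at chr5:171419397-171419696 (plus strand) and *KSR2* at chr12:117968941-117969240 (minus strand). A match is a description of the letters and not evidence of binding.
NR2F1 promoter: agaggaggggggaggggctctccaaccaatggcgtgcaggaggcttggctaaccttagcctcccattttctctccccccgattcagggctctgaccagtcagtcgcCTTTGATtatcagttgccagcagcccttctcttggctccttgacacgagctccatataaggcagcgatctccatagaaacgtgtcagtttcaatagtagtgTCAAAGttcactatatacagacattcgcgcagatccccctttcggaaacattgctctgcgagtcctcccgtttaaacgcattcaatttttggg
FGF18 promoter: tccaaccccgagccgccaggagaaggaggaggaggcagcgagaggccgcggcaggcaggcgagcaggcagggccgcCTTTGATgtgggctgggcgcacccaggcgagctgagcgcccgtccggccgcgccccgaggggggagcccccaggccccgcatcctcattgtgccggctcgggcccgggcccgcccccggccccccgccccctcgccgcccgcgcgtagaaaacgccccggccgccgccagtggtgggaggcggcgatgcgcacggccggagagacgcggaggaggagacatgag
KSR2 promoter: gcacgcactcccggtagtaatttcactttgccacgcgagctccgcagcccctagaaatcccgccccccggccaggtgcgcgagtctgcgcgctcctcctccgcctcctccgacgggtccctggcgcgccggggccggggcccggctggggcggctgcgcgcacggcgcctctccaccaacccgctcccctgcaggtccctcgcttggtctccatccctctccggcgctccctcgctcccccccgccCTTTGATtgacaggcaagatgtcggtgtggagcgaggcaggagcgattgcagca

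*FGF18*, a fibroblast growth factor, was at 8.56 to 17.7 in KO and 31.4 to 56.4 in WT (log2 fold change −1.75, adjusted p = 0.00494, limma). *KSR2*, a scaffold of the RAF and MEK kinases, was at 37.3 to 67.6 in KO and 332 to 647 in WT (log2 fold change −3.20, adjusted p = 1.15e-05).

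The list of β-catenin complexes, which includes *CTNNB1* itself, moved in both directions. Among 34 tested genes for adherens junction and nuclear complexes, 4 were lower and 2 higher in KO (2 held). The held falls were *CTNNB1* and its partner *TCF7L2*, and the median log2 fold change was −0.05. *TCF7L2*, a main TCF factor of the intestine, was at 1194 and 1594 in KO 44 and 1089 and 1599.6 in KO 47 and at 3021 and 4056 in WT 4 and 4084 and 5157 in WT 6 (log2 fold change −1.57, SE 0.18, adjusted p = 1.93e-04, limma). KO libraries were below all WT libraries. *TLE1*, a corepressor that binds TCF factors, rose from a range of 527 to 749 in WT to one of 1339.8 to 1691 in KO (log2 fold change 1.26, adjusted p = 1.21e-04). *CDH1*, which encodes the β-catenin-binding adhesion protein E-cadherin, was at 3278 and 3534 in KO 44 and 2805 and 3674 in KO 47 and at 1616 and 1655 in WT 4 and 1472 and 1181 in WT 6 (log2 fold change 1.17, adjusted p = 1.97e-04).

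WNT ligands and receptors moved in both directions, with 5 of 27 tested genes higher (4 held) and 1 lower (held), a share of 22.2%, and a median log2 fold change of −0.13. The ligand *WNT16* was at 154 and 199.7 in KO 44 and 229 and 268 in KO 47 and at 3396 and 3401 in WT 4 and 3529.7 and 3433 in WT 6. WT libraries lay within a narrow range far above KO (log2 fold change −4.04, SE 0.15, adjusted p = 6.93e-08, limma). Besides *WNT7A*, the ligands *WNT9A* and *WNT7B* rose. *WNT9A* was at 832 and 965 in KO 44, 2033 and 2286 in KO 47 and 282 to 426 in WT, with a log2 fold change of 1.98 (adjusted p = 0.00291) and a difference between KO clones (adjusted p = 0.00671). *WNT7B* was at 583 to 966 in KO and 177 to 279 in WT (log2 fold change 1.83, adjusted p = 1.94e-04).

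Of 42 tested genes of TGF-β and BMP signaling 6 were lower and 1 higher, a share of 16.7%, and all 7 were held. Over the whole list signs were mixed, with 22 positive and 20 negative and a median log2 fold change of 0.06. *BMP4* (ENSG00000125378, chromosome 14, 54416454 to 54425479), a secreted BMP ligand, was at 279 and 295 in KO 44 and 162 and 285 in KO 47 and at 10661 and 10608 in WT 4 and 2235 and 2557 in WT 6. WT 4 was above WT 6, and every WT library was above every KO library (log2 fold change −4.34, SE 0.58, adjusted p = 0.00287, limma). Without KO 47A *BMP4* was a DEG but not held. *SMAD7*, an inhibitory SMAD, was at 28.5 and 33.9 in KO 44, 70.6 and 65.7 in KO 47 and 200.5 to 296 in WT (log2 fold change −2.35, adjusted p = 4.98e-04; difference between KO clones, adjusted p = 0.0488). *BAMBI*, a pseudoreceptor for the ligands, fell from a range of 309 to 536 in WT to one of 54.6 to 119.9 in KO (log2 fold change −2.31, adjusted p = 4.97e-04). *ID2*, a target that inhibits helix-loop-helix factors, was at 664 and 492 in KO 44, 1349.8 and 1582 in KO 47 and 3917 to 4774 in WT (log2 fold change −2.20, adjusted p = 0.00335; difference between KO clones, adjusted p = 0.00204). The only rise was *SMAD3*, a receptor-regulated SMAD named after its value had been seen, at 4782 to 7703 in KO and 1283 to 1523 in WT (adjusted p = 3.77e-06, limma).

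Of 45 tested developmental transcription factors, 7 were lower (6 held) and 3 higher (3 held), with a median log2 fold change of −0.17. The falls included *ZBED2*, *NR2F1* and *SOX4*, and also *DLX2*, a homeobox factor, which was at 30.5 and 36.7 in KO 44 and 23.5 and 29.5 in KO 47 and at 161 and 131 in WT 4 and 207 and 154 in WT 6 (log2 fold change −2.40, adjusted p = 4.30e-05, limma). No WT library was below 131 and no KO library above 36.7.

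ETS transcription factors changed in opposite directions. Among 19 tested, 4 were higher and 2 lower in KO, 2 of each were held, and the median log2 fold change was −0.06. In contrast to *EHF*, its relative *ELF3*, also an epithelial factor, rose from a range of 409 to 759.6 in WT to one of 2508 to 4010.02 in KO (log2 fold change 2.50, SE 0.20, adjusted p = 1.28e-05, limma). KO 44 and KO 47 were both well above WT. *ETS1* was the other held rise. *ETV1* was at 449 and 594 in KO 44 and 370.4 and 501 in KO 47 and at 676 and 961 in WT 4 and 1896 and 2099 in WT 6 (log2 fold change −1.42, adjusted p = 0.0232), but this change was not called without KO 47A (adjusted p = 0.0606), KO 44A or WT 6A, and with the round as a block it was no longer held in both clones.

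Among epithelial junction and keratin genes 24 of 36 had a positive sign, with 7 of 36 tested genes higher (3 held) and 2 lower (2 held) and a median log2 fold change of 0.44. *KRT7*, a keratin of ductal epithelia, was at 10816 and 11162 in KO 44 and 1729.8 and 1684 in KO 47, compared with 714 and 416 in WT 4 and 468 and 268 in WT 6. The clones differed by 2.69 on the log2 scale (adjusted p = 0.00203, limma), and the pooled log2 fold change of 3.30 (adjusted p = 0.0298) was not called with the round as a block (adjusted p = 0.0528) or in 6 of the 8 fits without 1 library, where it ran up to 0.0818. *KRT6A* had few reads, 0 to 5.35 in KO and 13.3 to 53.2 in WT (log2 fold change −3.33, adjusted p = 0.00361), and its reads could be split with near-identical keratin genes. *KRT20*, a marker of differentiated colonocytes, lies next to *KRT23* and was at 104 and 78.9 in WT 4 and 58.2 and 70.4 in WT 6. It was at 0.983 and 0 in KO 44 and 0 and 0.952 in KO 47, with at most 1 read in any KO library (adjusted p = 3.50e-06).

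*KRT20* was the only fall among 7 tested genes of absorptive colonocytes, for which the median log2 fold change was 0.82, and 2 genes rose and were held. *DPP4*, a brush border peptidase, was at 2018 to 4364 in KO and 437 to 1116 in WT (log2 fold change 1.91, adjusted p = 0.00389, limma). *CA2*, a carbonic anhydrase, was at 2156 to 2719.5 and 656 to 1494 (log2 fold change 1.32, adjusted p = 0.00402), and was not held without KO 47A. None of 5 tested goblet and secretory genes was a DEG in limma, edgeR or DESeq2, while 2 had an adjusted and 4 an unadjusted p under 0.05 in limma. *KLF4*, a factor of goblet cell differentiation, was at 1384 to 1769.98 in KO and 684 to 1301 in WT (log2 fold change 0.63, adjusted p = 0.0402).

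Extracellular matrix genes and their receptors held the largest number of DEGs of any list, 41.4% of its tested members compared with 5.06% of all genes. Of 29 tested, 11 were higher (9 held) and 1 lower (held), and the median log2 fold change was 0.66, compared with −0.01 for all genes. *LAMA3* and *LAMB3*, laminin chains of epithelial basement membranes, were named after their values had been seen. They rose by 1.73 and 1.63 on the log2 scale (adjusted p = 3.59e-04 and 1.92e-04, limma). *ITGA3*, an integrin subunit that binds laminin, was at 34416 and 33333 in KO 44, 19003 and 18367 in KO 47 and 5542 to 8173 in WT (log2 fold change 1.92, adjusted p = 3.64e-04; difference between KO clones, adjusted p = 0.0188).

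*LAMA4*, a laminin chain of endothelial and muscle basement membranes, had the reverse order of clones. It was at 614 and 543 in KO 44, 1744 and 1647 in KO 47 and 196 to 358 in WT (log2 fold change 1.88, adjusted p = 0.0153; difference between KO clones, adjusted p = 0.00672, limma). The single fall was *LAMA2*, the laminin chain of muscle, at 131 and 117 in KO 44 and 142 and 99.9 in KO 47 and at 796 and 695 in WT 4 and 697 and 652 in WT 6 (log2 fold change −2.53, SE 0.15, adjusted p = 1.17e-06). Of 18 tested mesenchymal genes 2 rose (11.1%), both held, with a median of 0.24. These were *SNAI2* and *LOXL2*, a lysyl oxidase that crosslinks collagen, which was at 2747 and 1561 in KO 44 and 1036 and 736 in KO 47 and at 195 to 444 in WT (log2 fold change 2.17, adjusted p = 0.00821) and was not held without KO 47A.

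On the list of chemokine and chemotaxis genes 8 of 21 tested members were higher, 7 of which were held, and none was called lower. The median log2 fold change was 0.90, and 11 of the 21 had an adjusted p under 0.05 with a positive sign. None of the 8 called genes was a chemokine. The 2 cytokines among the 8 were *IL18* and *IL15*, and the others were semaphorins, their receptors and a netrin, which are known for axon guidance. The 7 neuron markers summed to 129 to 285 in WT and 390 to 612 in KO. The 1 DEG among them was *MAP2*, at 52.7 to 148 in WT and 337 to 520 in KO. Of the 4 tested markers 2 had a positive and 2 a negative sign. *TUBB3* was at 32.4 to 65.9 in WT and 7.54 to 33.2 in KO (log2 fold change −1.21, adjusted p = 0.0818, limma). The part of neuron markers in these rises was not tested. *SEMA3A*, a secreted semaphorin like *SEMA3D*, was at 849.9 and 888 in KO 44 and 659 and 876 in KO 47 and at 76.1 and 71.5 in WT 4 and 90.6 and 63.8 in WT 6. The groups did not overlap (log2 fold change 3.42, SE 0.16, adjusted p = 2.57e-07, limma). Its coreceptor gene *PLXNA2* rose from a range of 9.24 to 20.9 in WT to one of 90.4 to 140.2 in KO (log2 fold change 3.11, adjusted p = 4.92e-05). *NTN4*, a netrin, was at 819 and 818 in KO 44, 143 and 112 in KO 47 and 17.6 to 61.0 in WT (log2 fold change 3.11, adjusted p = 0.0239; difference between KO clones, adjusted p = 0.0102), and was not held without KO 47A and not called without KO 44A, WT 4A, WT 4B or WT 6B.

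Hemostasis genes were higher in 4 of 24 tested cases (16.7%), all held, with a median of 0.22. *PLAU*, the urokinase plasminogen activator, was at 7619 and 7141 in KO 44 and 5052 and 3892 in KO 47 and at 682 and 464 in WT 4 and 789 and 696 in WT 6 (log2 fold change 3.15, SE 0.22, adjusted p = 8.06e-06, limma). *TFPI*, an inhibitor of the tissue factor pathway, rose from a range of 359 to 535 in WT to one of 1295 to 2294 in KO (log2 fold change 2.02, adjusted p = 7.78e-05). *THBS1*, the matrix protein thrombospondin, was at 2123 and 2058 in KO 44, 574 and 915 in KO 47 and 213 to 349 in WT (log2 fold change 2.20, adjusted p = 0.00805), and the KO clones differed by 1.53 on the log2 scale (adjusted p = 0.0115). The receptor tyrosine kinase gene *AXL*, which is also on the list of YAP and TEAD genes, was at 5228 and 5810.1 in KO 44, 3101 and 3318 in KO 47 and 1049.7 to 2338 in WT (log2 fold change 1.44, adjusted p = 0.0118).

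Genes of YAP and TEAD signaling were higher in 4 of 23 cases (17.4%), all held, with a median of 0.15. *NT5E*, an ectonucleotidase, was at 11044 and 11557 in KO 44 and 11037 and 11511 in KO 47 and at 2216 and 1987 in WT 4 and 2334 and 1872 in WT 6. The 4 KO libraries were nearly equal, and the log2 fold change was 2.43 (SE 0.09, adjusted p = 6.93e-08, limma). *CCN1*, a matricellular protein, was at 1011 to 1893 in KO and 247 to 661 in WT (log2 fold change 1.74, adjusted p = 0.0110). The coactivator TAZ, encoded by *WWTR1*, rose from a range of 1168 to 1341 in WT to one of 2499 to 3106 in KO (log2 fold change 1.13, adjusted p = 3.60e-05). With the round as a block, and likewise without KO 47A, *AXL* and *CCN1* were DEGs but not held in both clones.

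Of 28 genes of the EGF family and MAPK feedback, 3 rose (2 held) and 2 fell (1 held), a share of 17.9%, with a median of 0.28. *DUSP5*, a phosphatase of ERK, was at 11634 to 18745 in KO and 2032 to 5354 in WT (log2 fold change 2.04, adjusted p = 0.00258, limma). The AP-1 subunit gene *FOSL1* rose from a range of 3061 to 4922 in WT to one of 10671 to 17013 in KO (log2 fold change 1.74, adjusted p = 6.34e-05), whereas the immediate early gene *EGR1* was at 119.9 and 97.0 in KO 44, 374 and 331 in KO 47 and 547 to 1131 in WT (log2 fold change −2.09, adjusted p = 0.0174, but 0.0504 without KO 44A and 0.0509 without WT 4A; difference between KO clones, adjusted p = 0.0129). Neither *DUSP5* nor *EGR1* was held without KO 47A. Among 29 interferon-stimulated genes 2 rose, a share of 6.90% that is near that of all genes. Of these *IFIH1*, a sensor of viral RNA, was held (214 to 307 in WT and 558 to 726 in KO, log2 fold change 1.22, adjusted p = 3.34e-04), and the median of the list was 0.26. Calcium-binding S100 and calbindin genes were higher in 2 of 11 cases, both held, and lower in 1 that was not held, a share of 27.3%, with a median of 0.52. Besides *CALB2* this concerned *S100A16*, at 8700.2 to 11862 in KO and 3085 to 6523 in WT (log2 fold change 1.31, adjusted p = 0.00232), which was not held without KO 47A.

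Of 28 tested genes of xenobiotic metabolism, 3 rose (2 held) and 3 fell (3 held), a share of 21.4%, with a median of 0.06. *ABCC2*, an efflux transporter of conjugates, was at 1011 and 1122 in KO 44 and 1143 and 1442 in KO 47 and at 5395 and 8147 in WT 4 and 3849 and 3434 in WT 6 (log2 fold change −2.07, adjusted p = 3.87e-04, limma). *ALDH3A2*, a fatty aldehyde dehydrogenase, rose from a range of 1961 to 2091 in WT to one of 5567 to 7259 in KO (log2 fold change 1.64, SE 0.10, adjusted p = 1.97e-06). *CYP1B1*, a cytochrome P450, fell from a range of 52.4 to 66.8 in WT to one of 14.7 to 25.7 in KO (log2 fold change −1.46, adjusted p = 0.00315) and was not held without KO 47A.

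Lists of lipid synthesis and glycolysis had shares of 2.94% and 5.71%, against 5.06% of all genes. The only DEG among 34 genes of cholesterol and fatty acid synthesis was *ELOVL6*, a fatty acid elongase, which was at 7079 and 8833 in KO 44 and 7357 and 9820.2 in KO 47 and at 1409 and 1754 in WT 4 and 2161 and 2162 in WT 6 (log2 fold change 2.15, adjusted p = 6.53e-06, limma). Glycolysis and hypoxia genes contained 1 rise and 1 fall among 35, both held. *SLC2A1*, the glucose transporter GLUT1, was at 3384 and 2663 in KO 44 and 2168 and 2489 in KO 47 and at 8618 and 6271 in WT 4 and 10974 and 9733 in WT 6 (log2 fold change −1.72, SE 0.18, adjusted p = 1.11e-04). *DDIT4*, an inhibitor of mTOR, was at 6859 and 6162 in KO 44, 1759 and 1780.4 in KO 47 and 315 to 710.05 in WT (log2 fold change 2.79, adjusted p = 0.0121), and the KO clones differed (adjusted p = 0.00770).

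**Figure D3:**
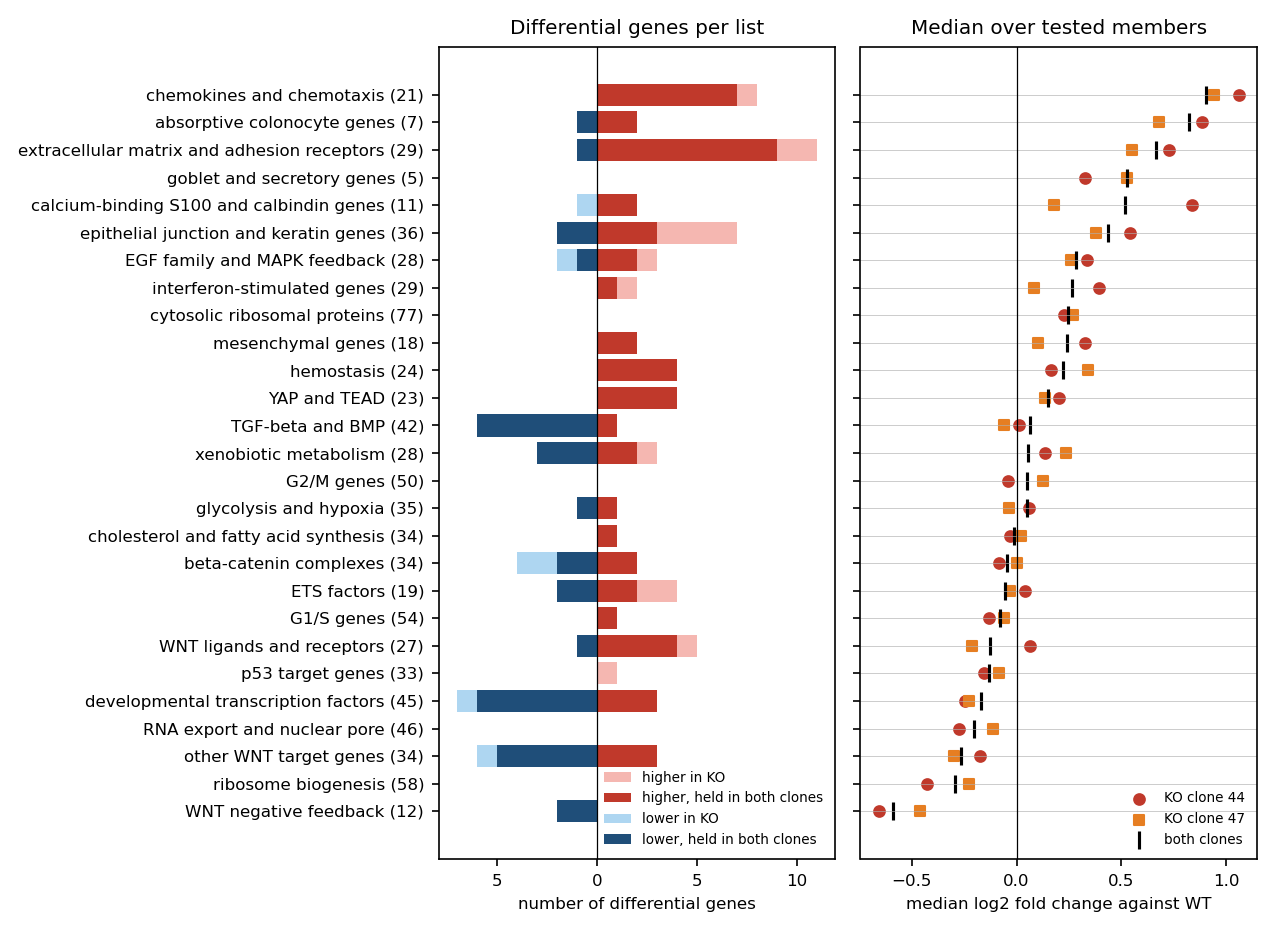
Left, number of DEGs per gene list, with rises to the right of 0 and falls to the left, and darker bars for those held in both KO clones. Right, median log2 fold change over the tested members in both clones together and in each clone. The number of tested genes is in parentheses. Rises are most numerous in the extracellular matrix list (11), and the lists of ribosome biogenesis, RNA export, ribosomal proteins and G2/M genes hold no DEG.

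Proliferation and ribosome genes gave almost no DEGs. Of 54 tested G1/S genes 1 was a DEG, the CDK inhibitor *CDKN2C*, which rose from a range of 195 to 281 in WT to one of 542 to 684 in KO (log2 fold change 1.27, adjusted p = 2.83e-04, limma). *CCND1*, which encodes cyclin D1, was at 19688 to 28332 in KO and 16904 to 27864 in WT (log2 fold change 0.16, adjusted p = 0.583). None of 50 G2/M genes was a DEG in limma, edgeR or DESeq2, while 4 had an adjusted and 11 an unadjusted p under 0.05 in limma. Of 33 p53 target genes 1 was a DEG, which was not held, and *CDKN1A*, the p53 target p21, was at 4717 and 5281 in KO 44 and 7441 and 7906 in KO 47 and at 9316 and 9218 in WT 4 and 3230.3 and 2997 in WT 6, with WT clones on either side of KO (adjusted p = 0.792).

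Small shifts were seen in genes for ribosomes. Among 58 tested genes of ribosome biogenesis 56 had a negative sign, the median log2 fold change was −0.30 and 18 had an adjusted and 32 an unadjusted p under 0.05. None was a DEG in limma, edgeR or DESeq2, and the same was true of the lists of ribosomal proteins and RNA export. *NCL*, the nucleolar protein nucleolin, was at 56844 and 56762 in KO 44 and 60637 and 69965 in KO 47 and at 70563 and 72069.9 in WT 4 and 82836 and 109976 in WT 6 (log2 fold change −0.44, adjusted p = 0.0549, limma). KO values were below all WT values, and the adjusted p was 0.0460 with the round as a block. The 77 genes of cytosolic ribosomal proteins had a median of 0.24, with 73 positive, 11 under an adjusted and 35 under an unadjusted p of 0.05, and *RPLP0* was at 94584 to 107789 in KO and 59647 to 87115 in WT (log2 fold change 0.48, adjusted p = 0.0172). RNA export genes had a median of −0.20 with 37 of 46 negative, 5 under an adjusted and 19 under an unadjusted p of 0.05. *XPO1*, the nuclear export receptor, was at 10408 to 14372 in KO and 11263 to 15762 in WT (adjusted p = 0.325). The share with an adjusted p under 0.05 in limma was 31.03% for ribosome biogenesis, 14.29% for ribosomal proteins and 10.87% for RNA export. Among all tested genes it was 13.98%, so that only the ribosome biogenesis list stood well above all genes. Genes within these lists are not independent of each other.

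**Figure D4:**
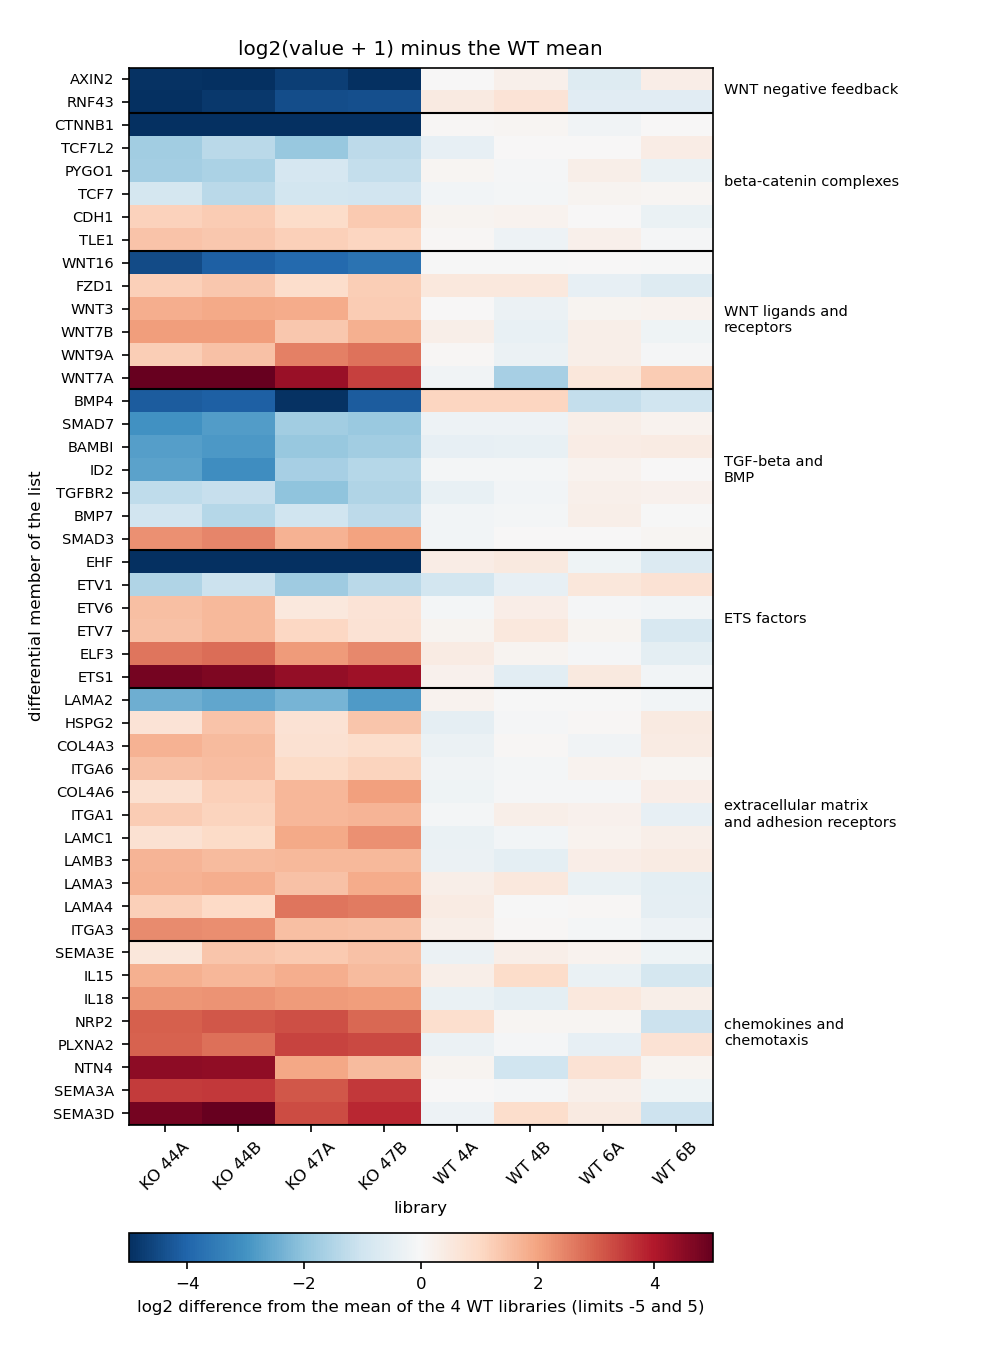
Heat map of 46 DEGs on 7 of the lists, with 1 row per gene and 1 column per library. Colour gives log2(value + 1) minus the mean of the 4 WT libraries, from blue (lower) to red (higher), with limits at −5 and 5. The 4 KO columns have the same colour direction in each row, while the shade differs between clones in rows such as *WNT7A*, *NTN4* and *LAMA4*.

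A gene that is not held is not thereby shown to differ between the KO clones. Of the 306 DEGs that were not held, 190 passed the thresholds in KO 44 only, 84 in KO 47 only and 32 in neither clone alone. In each of the 274 called in 1 clone, the other clone had the same sign. The difference between clones itself passed the thresholds in 17 of the 306 and in 41 of the 473 held genes, compared with 338 of all tested genes (2.19%). The share was 7.45% among DEGs and 1.91% among the other genes, and since these are far more numerous they held 280 of the 338.

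The 6 largest such differences among DEGs that were not held and had a mean of at least 100 went in both directions. *SDCBP2*, a syntenin family protein, was at 37.3 and 51.8 in KO 44 and 231 and 147 in KO 47 and at 15.2 to 34.9 in WT. *DYNLT3*, a dynein light chain, was at 1555 and 1579.7 in KO 44 and 5203 and 5507 in KO 47 and at 862 to 1029 in WT. Both were thus raised mainly in KO 47, with adjusted p-values of the clone difference of 0.0239 and 8.33e-05 (limma). *SCARA3*, a scavenger receptor, was at 774 and 606 in KO 44 and 227 and 235 in KO 47 and at 875 to 1264 in WT, with the larger fall in KO 47 (adjusted p = 0.00324). In contrast, *TNFAIP2*, an inducible protein of the cytoskeleton, was at 4099 and 5282 in KO 44 and 1542 and 1691 in KO 47 and at 848 to 1214 in WT. *TIMP2*, an inhibitor of metalloproteases, was at 5648 and 4762 in KO 44 and 2231 and 1773 in KO 47 and at 696 to 1553 in WT, and the noncoding RNA *LINC00511* at 764 and 777 in KO 44 and 286 and 274 in KO 47 and at 99.96 to 249.5 in WT. These were higher mainly in KO 44 (adjusted p of the difference 0.00170, 0.0422 and 0.0482). For none of the 6 did the pooled change of KO against WT remain a DEG with the round as a block, where the adjusted p ran from 0.0591 to 0.0829, and the clone difference of *TIMP2* was then also lost (adjusted p = 0.0519). The clone differences of *SDCBP2*, *TIMP2* and *LINC00511* were not called when any 1 of the 4 KO libraries was left out.

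In 11 genes each KO clone passed the thresholds against WT but in opposite directions, and the pooled comparison called none of them. They included *CITED4*, *S100A4*, *CRYZL2P*, *SNTG2*, *TTN*, *PRKCQ*, *CTSH*, *RTN4RL1*, *ABHD8* and *TCN2*, listed because they met this condition. *S100A4*, a calcium-binding protein, was at 9299.8 and 8614 in KO 44 and 484 and 523 in KO 47 and at 2040.2 and 1668 in WT 4 and 1409 and 1007 in WT 6. It was above all WT libraries in KO 44 (log2 fold change 2.59) and below all in KO 47 (−1.56), with a difference of 4.15 (adjusted p = 3.02e-05, limma). *CTSH*, a lysosomal cysteine protease, was at 933 and 867 in KO 44 and 121 and 90.4 in KO 47 and at 279.9 to 367 in WT (difference 3.09, adjusted p = 3.75e-05). The reverse pattern was seen for *PRKCQ*, a protein kinase C, at 14.7 and 12.2 in KO 44 and 149 and 176 in KO 47 and at 19.4 to 56.6 in WT (difference −3.50, adjusted p = 0.00242), and for *SNTG2*, a syntrophin that was listed at 0 in both KO 44 libraries and at 59.9 and 51.4 in KO 47, with 2.78 to 19.4 in WT.

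Held genes were in places next to each other in the genome. Among tested genes in order of position (GRCh37), 46 neighbouring pairs were both held in the same direction, 26 of them lower and 20 higher. A held fall was followed by another held fall in 15.4% of cases, whereas 1.10% of all tested genes were held falls. For held rises the share was 6.64%, and 1.97% of all tested genes were held rises. Spans overlapped in 11 of the pairs, where reads of both genes cannot be told apart without strand.

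The pairs without overlap included several of the largest changes. *KRT20* and *KRT23* lie 37457 bases apart on chromosome 17 and fell together. *BMP4* and the noncoding RNA *LINC02331* on chromosome 14 are 98853 bases apart and had log2 fold changes of −4.34 and −3.91 (adjusted p of *LINC02331* 0.00656, limma). *KITLG* and *LINC02458* on chromosome 12 are 429829 bases apart with log2 fold changes of −5.23 and −5.08. Upstream of *TCF7L2* on chromosome 10, *VTI1A*, a SNARE of vesicle fusion, had a log2 fold change of −1.72. On the same chromosome *MKX*, *ODAD2* and *MPP7* followed each other with −4.28, −3.07 and −3.19. Among rises, *HOXA2* and *HOXA3* on chromosome 7, homeobox genes of axial patterning, had values of 2.37 and 2.75. Apart from those in the named genes, these pairs were chosen after their values had been seen.

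The KO effect in HCT116 was compared with that in the other lines by testing the difference of the 2 effects for each gene. It differed from the effect in HT29 for 693 of 13550 genes tested (5.11%) and from the effect in SW480 for 1146 of 14115 (8.12%). Among held genes that could be tested, 184 of 352 differed from HT29 and 159 of 388 from SW480, but held genes were chosen for a large effect in HCT116, so that nothing is read from these shares. In 68 held genes the HT29 effect was called in the same direction and in 15 in the opposite direction. The corresponding numbers for SW480 were 191 and 27. Among all genes tested in both lines, 780 of 13550 (5.76%) were called in HT29 and 1692 of 14115 (11.99%) in SW480. Since more genes were called in SW480 in general, the numbers for HT29 and SW480 are not compared with each other. The test found a difference for 82 held genes in both comparisons, 41 of which rose and 41 fell in HCT116.

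*EHF* had log2 fold changes of −7.65 in HCT116, −1.12 in HT29 and −0.72 in SW480, and both differences passed the thresholds (adjusted p = 2.68e-07 and 3.87e-08, limma). *KITLG* behaved similarly, with −1.10 in HT29 and −0.35 in SW480. *ETS1* rose by 4.52 in HCT116 and had values of 1.28 in HT29 and 0.28 in SW480, which also differed from HCT116. *CTNNB1* itself had values of −4.33 in HT29 and −5.54 in SW480, and its effect in HCT116 differed from that in HT29 (difference −1.44, adjusted p = 2.84e-05, limma) but not detectably from that in SW480 (adjusted p = 0.485). *RNF43* had values of 0.01 in HT29 and −2.96 in SW480. Its differences from HCT116 were −4.77 (adjusted p = 1.83e-08) and −1.80 (adjusted p = 0.00187, limma), and both passed the thresholds. For *AXIN2* the values were −3.70 and −4.74, and the differences from HCT116 did not pass the threshold (adjusted p = 0.183 and 0.711). *SNAI2*, *CALB2* and *SYTL5* rose in SW480 as well (4.39, 5.46 and 6.84), while in HT29 *CALB2* was at −0.24 and *SYTL5* at −0.43, both different from HCT116.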

How the data were processed

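RNA-seq libraries were made from total RNA with a TruSeq kit that does not mark strand. According to the submitters' processing notes the authors used STAR 2.7.5b, featureCounts 2.0.1 and DESeq2 2.11.40.6 with GRCh37. The deposited values are a signal, gene counts that the authors divided by a size factor per library, and whole reads were recovered within 0.001. Tables of the authors' own comparisons (fold changes and p-values) were not used.

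Here log2(value + 1) was tested with limma 3.58.1 (trend, robust; R 4.3.3) for genes at 10 or more in at least 4 of the 8 HCT116 libraries, with Benjamini-Hochberg adjustment over all 15404. Clones were compared in a fit with 3 groups (KO 44, KO 47 and WT). The effect in HCT116 was set against HT29 and SW480 in a fit over the 24 libraries. Alternatives used edgeR 4.0.16 and DESeq2 1.42.0 on recovered reads, a replicate block, other pseudocounts and filters, and fits without each library or clone. Rounds pair the libraries: the differences of round A minus B correlated between clones with r from 0.182 to 0.374 across genes, over 0.1 in 6 of 6 pairs. On simulated data with 15404 genes, 99.5% of 200 genes changed in both clones were called as held. These changes were well above the threshold for size, the same in both clones and only in genes above a minimum mean. Real held genes had a median absolute log2 fold change of 1.80. Smaller changes and changes of unequal size in the 2 clones were not simulated, so that the share does not apply to them. The simulated libraries were drawn independently, without spread shared by libraries of the same clone or round. The share therefore does not cover such spread either.

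Named genes are *CTNNB1*, the 12 largest rises and 12 largest falls among held genes with a mean of at least 100 and no overlap, the 6 DEGs not held that differ most between KO clones, up to 4 held members per list (if fewer than 2, the most abundant) and genes the study names. The libraries and the 27 gene lists were chosen with earlier results of these data known. 1103 of 1105 listed symbols matched. Intervals and floors cover counting error only. Some genes and sequences are not reported here.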

Additional observations from a re-analysis of the deposited data

Results flagged for a closer look

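KO 47A held 19267 genes with 1 to 9 reads, a gap to the other KO libraries that exceeded the critical value for 4 samples. It was the only such case among 63 groups of 4 examined, of which chance flags about 1 in 20.

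The effect of the KO differed between cell lines for several of the 12 genes with the largest changes that were examined, by the test of the difference itself in limma over 24 libraries. These genes were chosen for large changes in HCT116, and the same HCT116 libraries enter the test. Differences in that direction were thus favoured by the choice, and nothing is read from how many were found. The log2 fold change of *EHF* in HCT116 minus that in HT29 was −6.53, and minus that in SW480 it was −6.93. For *CYP24A1* these differences were −6.99 and −4.71. The fall of *KRT23* exceeded that in HT29 (−6.81), but no HCT116 KO library had over 4 of its reads, so that this value also depends on the 1 added. The falls of *ZBED2* (−3.24) and *PRF1* (−4.41) exceeded those in SW480, where the value for *PRF1* depends on the 1 added before taking logarithms, since no HCT116 KO library had over 3 of its reads. Among rises, *CALB2* (5.83) and *SYTL5* (5.92) differed from HT29, and ENSG00000230439 (2.73) differed from SW480.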

How the results depend on the processing

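The number of DEGs between KO and WT was 779, and 668 to 894 without 1 library. Averaging the rounds of a clone left 359 (228 higher, 131 lower, with 2566 genes at an unadjusted p under 0.05), with 2 values per genotype. Of the 74 named held genes 30 were then not called. The highest adjusted p among them was that of *KRT7* (0.411, limma). They included *PDE4B* (0.392), *WNT7A* (0.359), *DDIT4* (0.303), *BMP4* (0.237), *SYTL5* (0.198), *ID2* (0.194), *CALB2* (0.104), *KITLG* (0.0746) and *SNAI2* (0.0682). With the clone as a random effect 603 were DEGs. Without clone KO 47 it was 1180, of which 487 were lower. Held rises numbered 198 to 312 without 1 library, the lowest without KO 47A. Genes called in KO 44 against WT numbered 750 to 1285, and those that differed between KO clones 133 to 378, or 516 when genes with at least 1 in at least 1 library were tested, a filter that moved the median log2 fold change of all genes to 0.26. A fit without 1 library leaves its clone with 1 library, which is assumed to vary like the others. With the round as a replicate block 768 genes were DEGs and 488 held, 459 of them among the 473. edgeR held 477 (461 shared) and DESeq2 509 (458 shared). In every fit that left out 1 library 221 of the 473 were held. Without 1 library, DEGs higher on the epithelial list fell from 7 to 3 (without KO 44B or WT 6B) or 4 (without WT 4B) and those lower on the β-catenin complex list from 4 to 2 (without WT 6A). Without KO 44B, KO 47B, WT 4A or WT 6B, 5 genes of xenobiotic metabolism were higher in place of 3, without KO 44A or KO 44B 2 ETS factors in place of 4, without KO 47B 5 EGF and MAPK genes in place of 3, without WT 4A 5 developmental transcription factors in place of 3 and 4 S100 and calbindin genes in place of 2. The other list counts that moved by over 1.5 times held at most 2 genes. Of 2399 values for single genes under the alternatives, 2199 kept direction and call, 181 lost the call, 4 gained it and 15 changed sign, all for 6 genes that were not called. The log2 fold change became −0.11 for *CDKN1A*, −0.0314 for *CCND1* and −0.0286 for *SCD* without clone KO 47, −0.15 for *CCND1* and −0.0568 for *SCD* without clone WT 4, and −0.58 for *CDKN1A*, 0.0126 for *ALYREF* and 0.11 for *COL1A1* without clone WT 6. Without 1 library it ran from −0.0760 to 0.47 for *CDKN1A*, −0.0536 to 0.24 for *SCD*, −0.17 to 0.0133 for *ALYREF*, −0.12 to 0.0808 for *COL1A1* and −0.40 to 0.00708 for *ITGAM*. The edgeR interaction between lines was not run. Depth limits calls for genes near 10 reads.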

Other observations

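Some genes were nearly absent from 1 KO clone and expressed in the other, and are given as values chosen after they had been seen. *HNF4A*, a transcription factor of gut epithelium, was at 15.7 and 8.48 in KO 44 and 176 and 159.9 in KO 47 and at 177 to 320.2 in WT. *DPEP1*, a membrane dipeptidase, was at 1.97 and 0 in KO 44 and 856 and 709 in KO 47 and at 641 to 855 in WT. *MGMT*, a DNA repair methyltransferase, showed the reverse, with 455 and 326 in KO 44 and 1.07 and 0 in KO 47 and 161 to 359.6 in WT. The adjusted p of the difference between KO clones was 2.32e-04 for *HNF4A*, 4.94e-06 for *DPEP1* and 1.11e-05 for *MGMT* (limma).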
